A study of Homo sapiens with 13 samples.

Results

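EPHA2, CCDC85C, PRKAG2 and PDGFB are the genes beside 4 of the strongest sites at which YAP, TAZ, TEAD4 and JUN were all listed in MDA-MB-231, a human triple-negative breast cancer cell line. They were chosen by the measured enrichment of one site each, so the strength of that site is a description here and carries no test. An interval on hg19 was set around each gene: chromosome 1 from 16400000 to 16582582 for EPHA2, chromosome 14 from 99977603 to 100170727 for CCDC85C, chromosome 7 from 151253203 to 151674316 for PRKAG2, and chromosome 22 from 39550000 to 39740957 for PDGFB. Of the 50467 listed peaks of the series, 104 had their summit in these intervals: 17 of YAP, 22 of TAZ, 14 of TEAD4 and 51 of JUN. Peaks that overlapped by at least 1 bp were merged, which gave 54 regions out of 28100.

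The lists come from chromatin immunoprecipitation and sequencing (ChIP-seq), with no treatment named in the labels and 2 libraries each for YAP (antibody EP1674Y), TAZ (an antibody to WWTR1, the gene that encodes it), TEAD4 (antibody TEF-3 N-G2) and JUN. Enrichment is the authors' fold over control IgG, pooled from rabbit IgG 1 and 2 for YAP and TAZ, mouse IgG 3 and 4 for TEAD4, and mouse IgG 3 and 5 for JUN. Every peak name in the TAZ list carries the tag YAPTAZ, whose meaning is not stated, so whether TAZ values and the lack of a listed TAZ peak refer to TAZ libraries alone rests on the label of the list. One list per factor covers both libraries, so no value below has a replicate spread and the read depth is unknown. Fold enrichments are therefore compared as ranks within a list, where rank 1 is the most enriched peak. JUN has the longest list, with 24554 peaks. TAZ has 9798, TEAD4 8406 and YAP 7709.

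YAP and TAZ are coactivators restrained by the Hippo pathway. They do not bind DNA themselves and reach it mainly through TEAD proteins, which recognise the sequence GGAATG. JUN belongs to the AP-1 family, which binds TGANTCA, and both families are known to act largely at enhancers away from gene starts. The 4 genes have different roles. EPHA2 is a receptor tyrosine kinase for ephrin-A ligands and PDGFB is the B chain of the growth factor PDGF. PRKAG2 is a regulatory subunit of the energy sensor AMPK, and CCDC85C is a coiled-coil protein reported at cell junctions.

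All 4 genes are transcribed toward lower coordinates. Positions are given from the point 100 kb inside the right-hand end of each interval, read as the 5′ end of the gene on hg19. A distance is that of the middle of a region, or of the summit for a single peak. Nearest protein-coding neighbours in the RefSeq gene order are FAM131C and ARHGEF19 for EPHA2, CCNK and HHIPL1 for CCDC85C, RHEB and GALNTL5 for PRKAG2, and CBX7 and RPL3 for PDGFB. No hg19 exon annotation was used here, so sites are not assigned to exons or introns, and a site in an interval is not thereby a site that acts on the gene.

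Among the 4284 regions of the series with all 4 factors, ordered by the mean of their ranks, the leading site of CCDC85C took place 1, that of PRKAG2 place 2, that of EPHA2 place 4 and that of PDGFB place 6. Ordered by −log10 p instead, EPHA2 took place 68, PRKAG2 place 6 and PDGFB place 88, and without the JUN list the places were 49 for EPHA2, 12 for CCDC85C, 17 for PRKAG2 and 98 for PDGFB. The place of the leading site against the gene, counted from the 5′ end used here, was not the same at all 4. At EPHA2 it was 17.5 kb upstream of the 5′ end (chr1:16499464-16500720). At CCDC85C it was 24.4 kb downstream of the 5′ end, inside the gene (chr14:100045753-100046914). In PRKAG2 it was also inside the gene, 122.8 kb downstream of the 5′ end (chr7:151451009-151452016). At PDGFB it lay 69.9 kb downstream of the 5′ end, past the gene itself and on the side of CBX7 (chr22:39570373-39571662). None of the 4 was at the 5′ end used here. Other starts, of these genes or of neighbours, were not placed on hg19.

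**Figure D1:**
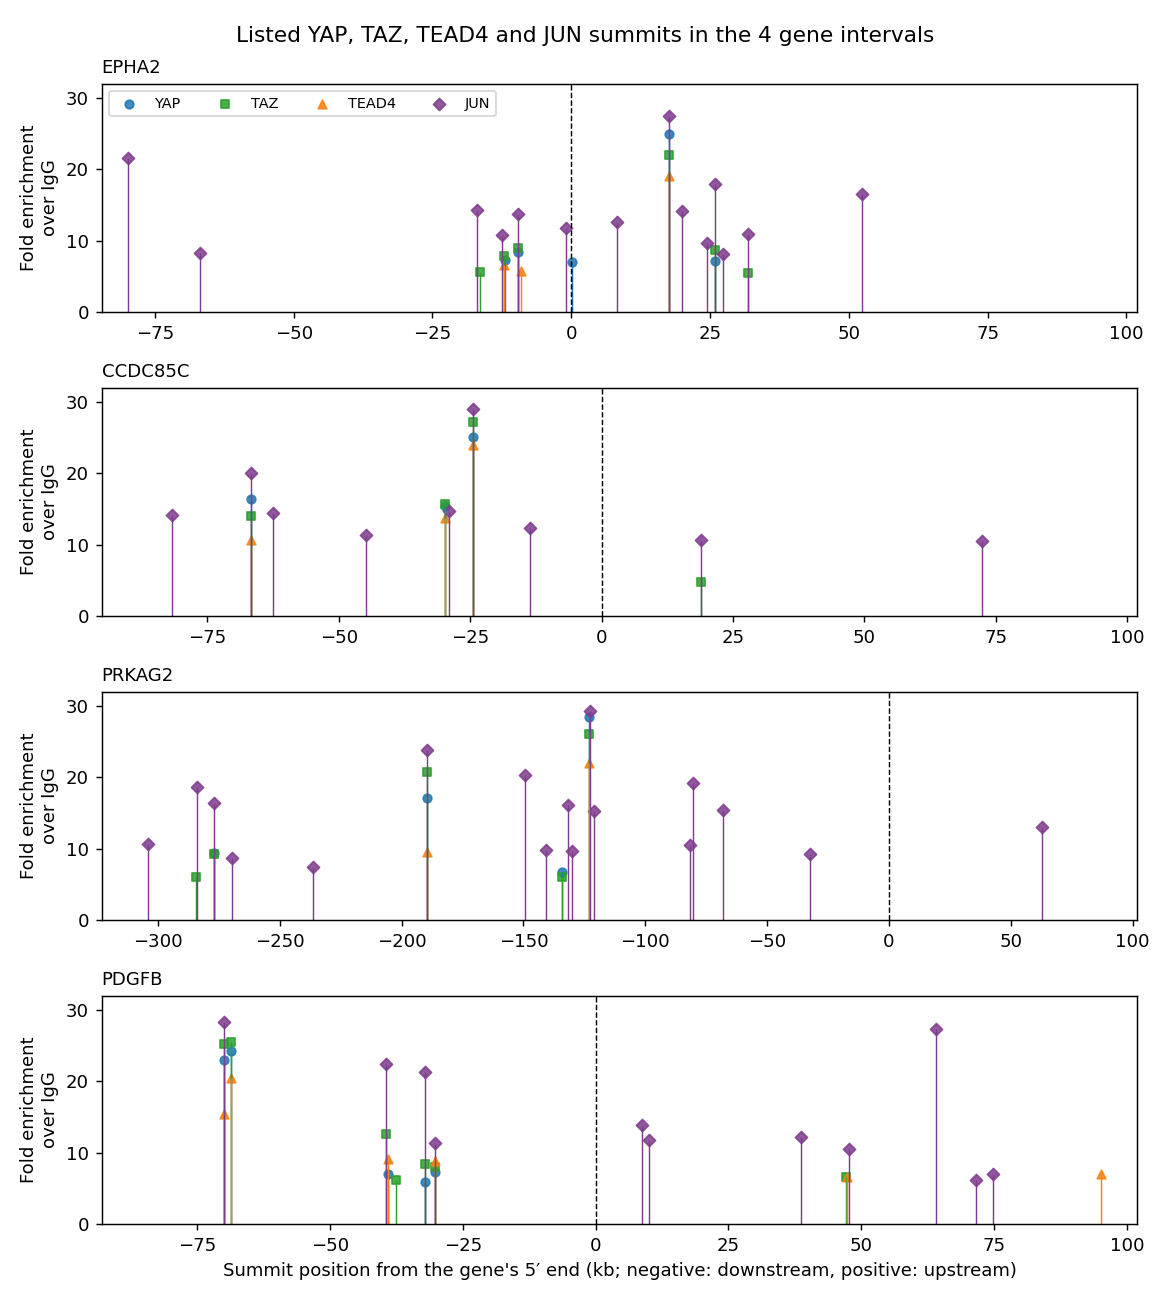
Fold enrichment over IgG of every listed peak (y axis) by the position of its summit from the 5′ end of the gene in kb (x axis, dashed line at 0), with 1 panel per gene and 1 marker shape per factor. The tallest group of 4 markers is 17.6 to 17.7 kb upstream at EPHA2 and downstream in the other panels. PDGFB alone has 2 tall groups side by side.

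In the EPHA2 interval 28 peaks formed 13 regions, and every one of these held JUN, as did 87.3% of all regions in the series. The leading region had a YAP enrichment of 25.01 (rank 39), a TAZ enrichment of 21.9 (rank 98), a TEAD4 enrichment of 19.1 (rank 162) and a JUN enrichment of 27.5 (rank 218). It held the strongest peak of the interval in all 4 lists, which the choice of the gene by this region favours. The second strongest YAP peak of the interval reached 8.38, the second TAZ peak 8.98 and the second TEAD4 peak 6.58. The second JUN peak reached 21.5, at a site 79.9 kb downstream of the 5′ end where no other factor was listed. How far other strong regions stand above their neighbours was not examined.

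Sites of fewer factors followed the leading region outward from EPHA2. At 26.1 kb upstream YAP (7.22), TAZ (8.72) and JUN (18.0) were listed without TEAD4, and at 31.97 kb upstream TAZ (5.55) with JUN (10.9). JUN alone was listed between them and on both sides, at 8.26, 19.97, 24.4, 27.2 and 52.4 kb upstream, with enrichments from 8.19 to 16.5. Of the 8 EPHA2 regions upstream of the 5′ end, the leading one was the single region with TEAD4.

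Inside EPHA2, a block of overlapping peaks ran from 16469815 to 16474364 and held 2 peaks of each factor. It counted as 1 region by the overlap rule, at 10.5 kb downstream of the 5′ end, but 2 separate sites could be read in it. At the first, YAP (7.30), TAZ (7.82) and TEAD4 (6.58) had their summits within 74 bp of each other, 12.0 to 12.1 kb downstream, and the JUN summit (10.8) was 382 bp from that of TEAD4. At the second, 9.55 to 9.61 kb downstream, YAP (8.38), TAZ (8.98) and JUN (13.7) lay within 63 bp, and the TEAD4 summit (5.80) was 566 bp from that of YAP. So a different factor stood apart in each. Regions with 8 or more peaks made up 6 of the 4284 regions with all 4 factors.

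EPHA2 was the one gene of the 4 with a listed peak over the 5′ end that distances are counted from. A YAP peak of 7.08-fold (rank 4210, from 16482473 to 16482787) had its summit 63 bp upstream, and a wide JUN peak of 11.7-fold had its summit 925 bp downstream. Neither TAZ nor TEAD4 was listed there, which does not show that they were absent. Between the listed peaks that flank the interval, the numbers in the peak names leave room for unlisted candidates. There could be up to 11 of TAZ and up to 11 of TEAD4. Of the 4210 YAP peaks at least as enriched, of which this is the weakest, 73 (1.73%) lay in a region without TAZ. Over the whole series 207 of the 7627 regions with YAP held exactly YAP and JUN. The RefSeq promoter window of EPHA2, from 250 bases before to 50 after the start, is shown because this peak falls at the gene start. It is on GRCh38.p14 (chr1:16156020-16156319, minus strand), another build than the peaks, so the summit cannot be placed in it to the base. Capitals mark matches to GGAATG on either strand (here as CATTCC) and to TGACGTCA, the cAMP response element, which some JUN heterodimers bind.
EPHA2 promoter: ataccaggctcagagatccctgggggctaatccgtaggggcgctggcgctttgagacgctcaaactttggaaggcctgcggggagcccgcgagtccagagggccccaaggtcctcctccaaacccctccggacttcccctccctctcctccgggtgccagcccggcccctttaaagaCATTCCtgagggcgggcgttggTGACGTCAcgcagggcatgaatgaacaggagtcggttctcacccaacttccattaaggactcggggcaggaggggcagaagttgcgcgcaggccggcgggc

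CATTCC lies 73 to 68 bases before the EPHA2 start and TGACGTCA 51 to 44 bases before it. No match to TGANTCA was found in the window on either strand. Of all 35116 RefSeq promoter windows, 14.03% held GGAATG on either strand, 7.71% held TGANTCA and 1.85% held TGACGTCA. The last motif was searched for after the sequence had been read. Windows were given for 3 of the 4 genes. The CCDC85C window held none of the 3 motifs, and of the 5 PRKAG2 windows 1 held GGAATG. Matches are letters in a window and do not show binding.

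In the CCDC85C interval 19 peaks formed 9 regions, each with JUN, against the same 87.3% in the series. The leading region ranked first of all 4284 regions with 4 factors, with a YAP enrichment of 25.2 (rank 37), TAZ 27.2 (rank 16), TEAD4 23.9 (rank 36) and JUN 29.1 (rank 127). CCDC85C differed from EPHA2 in having 2 further strong regions with all 4 factors inside the gene. The one 66.7 kb downstream of the 5′ end (chr14:100003474-100004528) had YAP at 16.4, TAZ at 14.01, TEAD4 at 10.7 and JUN at 20.1. The one 29.3 kb downstream (chr14:100040417-100042412) had YAP at 15.5, TAZ at 15.7, TEAD4 at 13.8 and JUN at 14.8. Their places among the 4284 regions were 229 and 637.

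The 2 CCDC85C regions differed in where JUN sat. At 66.7 kb the 4 summits fell within 18 bp and those of YAP and TAZ coincided. At 29.3 kb YAP, TAZ and TEAD4 fell within 15 bp, while the JUN summit was 700 bp from that of TEAD4, in a JUN peak 1996 bp wide. JUN alone was listed at 5 further CCDC85C regions with enrichments from 10.5 to 14.5. Upstream of the gene only 2 regions were listed, 1 with TAZ (4.79, rank 9064) and JUN (10.7) at 18.9 kb and 1 with JUN alone at 72.5 kb. The summit nearest the 5′ end was of JUN, 13.6 kb downstream.

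PRKAG2 is the longest of the 4 genes, and 17 of its 18 regions lay downstream of the 5′ end, inside the gene. Its leading region had the most enriched of the 17 YAP peaks, at 28.5 (rank 16), with TAZ at 26.0 (rank 31), TEAD4 at 22.1 (rank 63) and JUN at 29.3 (rank 116). The only other region with all 4 factors lay 189.4 kb downstream (chr7:151384291-151385532), where YAP reached 17.1 (rank 270), TAZ 20.7 (rank 135) and JUN 23.8 (rank 640). TEAD4 there was 9.54, rank 2121. Such a gap between the factors was uncommon. Among the 219 regions with all 4 factors and a YAP rank of 270 or better, the median TEAD4 rank was 265 with a median enrichment of 17.3, and 8 (3.65%) had a TEAD4 rank of 2121 or worse. That region took place 119 in the order by mean rank.

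Elsewhere in PRKAG2 no region held TEAD4. YAP (9.36) and TAZ (9.21) with JUN (16.4) were listed 277.3 kb downstream, TAZ (6.05) with JUN (18.7) 284.2 kb downstream, and YAP (6.69) with TAZ (6.08) but no JUN 134.3 kb downstream. The remaining 13 regions held JUN alone, with enrichments from 7.41 to 20.4, the highest at 149.4 kb downstream. The nearest listed summit to the 5′ end was of JUN, 32.6 kb downstream, and no YAP, TAZ or TEAD4 summit came nearer than 122.9 kb. PRKAG2 has other starts within the gene. Among its 5 RefSeq windows on GRCh38.p14, the others lie 62.3, 140.9, 244.004 and 244.9 kb downstream of the outermost. At the same distance as the start at 140.9 kb, counted on hg19 from the 5′ end used here, lay a region with JUN alone, from 141.3 to 140.3 kb downstream. The starts were not placed on hg19, so whether that peak covers one was not determined.

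PDGFB was the locus where the region that chose the gene was not its strongest YAP site. The leading region had YAP at 23.0 (rank 64), TAZ at 25.2 (rank 41), TEAD4 at 15.4 (rank 423) and JUN at 28.4 (rank 161). Only 47 bp beyond its end began a second region, of YAP, TAZ and TEAD4 without JUN (chr22:39571710-39573060). There YAP reached 24.3 (rank 48), TAZ 25.5 (rank 37) and TEAD4 20.5 (rank 95), and the 3 summits lay within 4 bp. TEAD4 differed most between the neighbours: its −log10 p was 123 at the first and 268 at the second. YAP went from 169 to 249 and TAZ from 202 to 264.

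The YAP summits of this PDGFB pair were 1379 bp apart. The JUN peak of the leading region ended 98 bp before the second region, and its summit was 1426 bp from the YAP summit there. A JUN peak missing from the list is not a JUN peak shown to be absent: the numbers in the peak names leave room for up to 5 unlisted JUN candidates between this peak and the next listed one, 29.6 kb away. Of the 48 YAP peaks at least as enriched as that of the second region, 9 (18.8%) lay in regions without JUN. Such regions were not particular to strong YAP peaks. Of the 7627 regions with YAP in the series, 1209 held exactly YAP, TAZ and TEAD4, and 307 exactly YAP and TAZ.

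**Figure D2:**
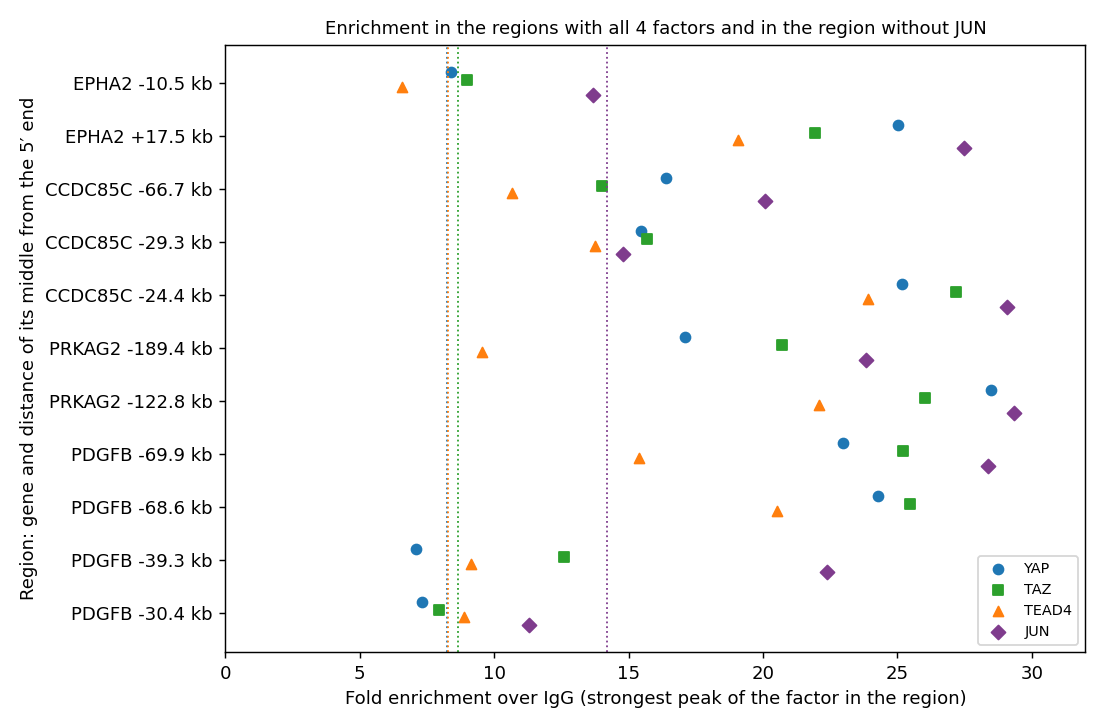
Fold enrichment over IgG (x axis) of the strongest peak of each factor in the 10 regions with all 4 factors and in the PDGFB region without JUN (rows, named by gene and the distance of the region's middle from the 5′ end). Dotted lines are the medians over all 4284 regions with 4 factors. TEAD4 at PRKAG2 -189.4 kb, at 9.54, stands close to its median of 8.29 while the other 3 markers stand far above theirs.

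Between this pair and the 5′ end of PDGFB came 4 more regions. The one 39.3 kb downstream (chr22:39601227-39602165) held all 4 factors in 2 separate places. TAZ (12.6) and JUN (22.4) had their summits 64 bp apart, and YAP (7.08) and TEAD4 (9.15) had theirs 10 bp apart, with the TEAD4 summit 488 bp from that of JUN. The one 32.1 kb downstream held YAP (5.94), TAZ (8.43) and JUN (21.3), and the one 30.4 kb downstream (chr22:39610067-39611134) held YAP at 7.30, TAZ at 7.96, TEAD4 at 8.88 and JUN at 11.3. That last region, place 2881 of 4284, was the weakest of the 10 regions with all 4 factors. TAZ alone was listed 37.6 kb downstream (6.25).

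Upstream of PDGFB, toward RPL3, neither YAP nor any region with all 4 factors was listed. TAZ (6.58) and TEAD4 (6.58) lay 47.2 and 47.3 kb upstream with a JUN peak (10.6) whose summit was 476 bp from that of TEAD4. A lone TEAD4 peak (7.01) lay 95.1 kb upstream. A JUN peak 64.03 kb upstream reached 27.4 (rank 222), close to the 28.4 of the leading region, with no other factor listed. Of the 222 most enriched JUN peaks of the series, 83 (37.4%) lay in regions with JUN alone. Over the whole series JUN alone was more common, in 16291 of the 24530 regions with JUN. The other JUN peaks upstream of PDGFB ranged from 6.19 to 13.9.

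Counted together, 10 of the 54 regions held all 4 factors (18.5%), where 15.2% of all regions in the series did. Since 4 of the 10 chose the genes, the remaining count is 6 of 50 regions (12.0%), near that background. EPHA2 had 2, CCDC85C 3, PRKAG2 2 and PDGFB 3. With only the stronger 50% of each list EPHA2 had 1 and PDGFB 1. JUN alone made up 31 of the 54 regions (57.4%), against 58.0% of all regions: 7 at EPHA2, 5 at CCDC85C, 13 at PRKAG2 and 6 at PDGFB. The 4 leading regions could not be of this set, and without them it was 31 of 50. The other 13 regions held 8 different sets, of which TAZ with JUN (4) and YAP with TAZ and JUN (3) occurred more than once. JUN was listed in 50 of the 54 regions, where 87.3% of all regions held it. Of the 54 regions, 21 held TAZ, 16 held YAP and 13 held TEAD4. Over all regions of the series, 34.5% held TAZ, 27.1% held YAP and 29.5% held TEAD4. The 4 leading regions, which hold every factor by choice, are in the counts of JUN, TAZ, YAP and TEAD4 and raise them.

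JUN alone spanned nearly the whole range of JUN enrichment in these intervals. The 31 regions with JUN alone had a median JUN enrichment of 12.3 and a range of 6.19 to 27.4. The median over all JUN-alone regions of the series was 11.0, and over all regions with 4 factors 14.2. Of the 31, 14 were below the median of the whole JUN list, 11.7. The most enriched JUN-alone region had 21.5 at EPHA2, 14.5 at CCDC85C, 20.4 at PRKAG2 and 27.4 at PDGFB. The JUN peaks of the leading regions, in the same order of genes, had 27.5, 29.1, 29.3 and 28.4. These are high by choice, since JUN enrichment took part in choosing the genes, so the comparison carries no weight.

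**Figure D3:**
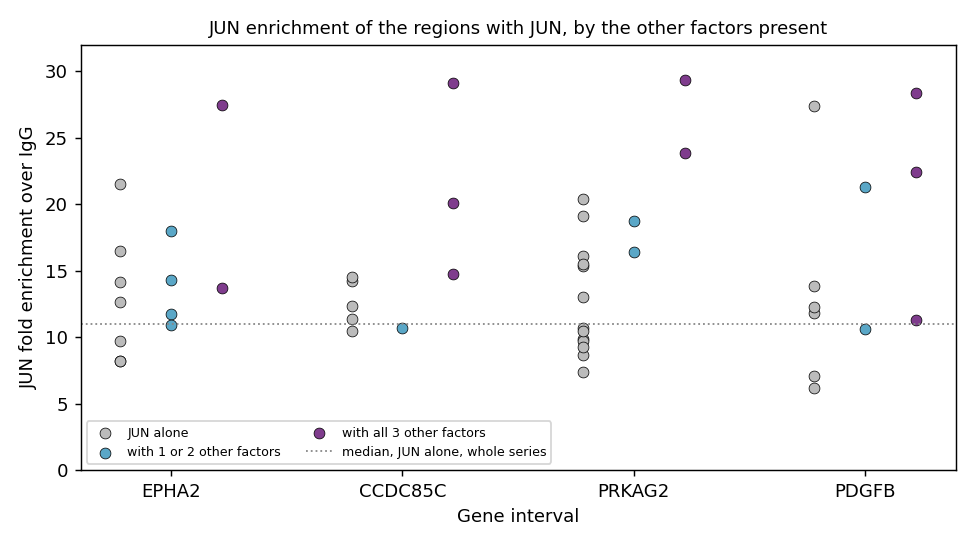
JUN fold enrichment over IgG (y axis) of every region with JUN in each interval (x axis), grouped by the other factors in the region. Each point is the strongest JUN peak of a region, and the dotted line is the median of JUN-alone regions over the whole series, 11.0. The JUN-alone points spread from 6.19 to 27.4, the highest at PDGFB.

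The order of the factors within a site was not fixed. Each factor's rank in a region with all 4 was divided by the length of its list, and the factor with the worst relative rank was noted. This was TEAD4 in 6 of the 10 regions, among them the leading regions of EPHA2, PRKAG2 and PDGFB, JUN in 3, YAP in 1 and TAZ in none. The 4 leading regions were chosen by these ranks, and an order by mean rank leaves little room for a poor JUN rank relative to so long a list. In the 6 other regions it was TEAD4 in 3, JUN in 2 and YAP in 1. Over all 4284 regions it was TEAD4 in 30.6%, JUN in 32.8%, YAP in 27.1% and TAZ in 9.45%. YAP and TAZ were set against rabbit IgG, and TEAD4 and JUN against mouse IgG. The part of this in the order of the factors was not tested.

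Summit positions were not used to choose the genes. In the 4 leading regions, the YAP, TAZ and TEAD4 summits spanned 17 bp at EPHA2, 9 bp at CCDC85C, 11 bp at PRKAG2 and 22 bp at PDGFB. With JUN the span stayed at 9 bp at CCDC85C and became 69 bp at EPHA2, 71 bp at PRKAG2 and 69 bp at PDGFB. The median span of the 4 summits over the 4284 regions was 48 bp, with quartiles of 30 and 80 bp, so 3 leading regions were above the median and inside the quartiles. A span of 9 bp or less was found in 2.66% of the 4284.

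The JUN summit lay on the lower-coordinate side at EPHA2 and PDGFB, 52 and 47 bp from the YAP summit. At PRKAG2 it lay on the other side, 60 bp away. At CCDC85C the JUN and YAP summits fell on the same base. Over the 10 regions, 7 had all 4 summits within 9 to 71 bp. The other 3, at EPHA2 (10.5 kb downstream), CCDC85C (29.3 kb) and PDGFB (39.3 kb), had the strongest summits of the 4 factors over 200 bp apart. Over the whole series 9.36% of regions with all 4 factors did.

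**Figure D4:**
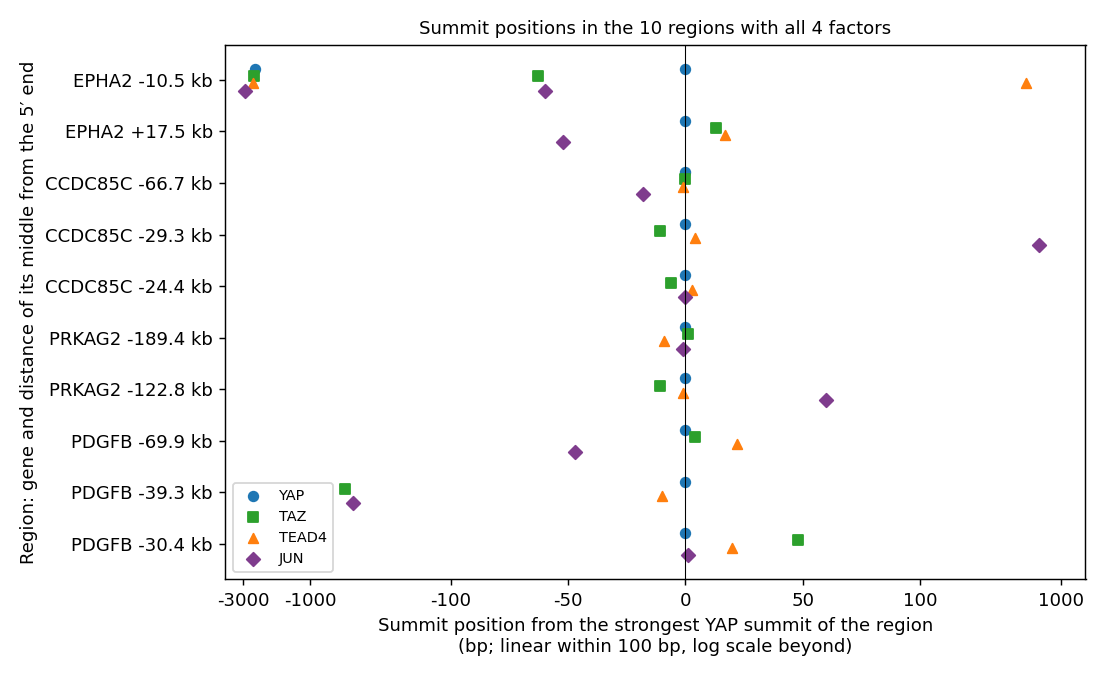
Summit positions from the strongest YAP summit (x axis, bp, linear within 100 bp and logarithmic beyond) in the 10 regions with all 4 factors (rows). In 7 rows all markers lie within 9 to 71 bp of each other, and in the rows EPHA2 -10.5 kb, CCDC85C -29.3 kb and PDGFB -39.3 kb at least 1 marker stands over 200 bp away.

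Peaks were denser in each interval than over its chromosome, which the choice of the genes favours. YAP peaks numbered 2.74 per 100 kb at EPHA2, 1.55 at CCDC85C, 0.950 at PRKAG2 and 2.62 at PDGFB, where the chromosomes had 0.302, 0.281, 0.229 and 0.281. JUN peaks numbered 7.67, 4.66, 4.04 and 5.76 per 100 kb, against 0.965, 0.892, 0.739 and 1.24. Within 100 kb of the leading region lay 1 other region with all 4 factors at EPHA2, 2 at CCDC85C, 1 at PRKAG2 and 2 at PDGFB. Of all 4284 such regions, 46.6% had none within 100 kb, 26.8% had 1, 14.3% had 2 and 12.3% had more.

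The edges of the intervals fell in different surroundings. At EPHA2 a group of YAP (8.35), TAZ (8.66) and TEAD4 (6.13) summits lay 4.92 to 4.98 kb outside the upstream edge and is not counted above. At PRKAG2 such a group of YAP (9.08), TAZ (9.89) and TEAD4 (8.66) lay 29.3 kb outside. At CCDC85C the nearest YAP summit outside was 327 kb away, and at PDGFB 190 kb. Both were on the upstream side. YAP peaks numbered 0.281 per 100 kb over the chromosome of CCDC85C and also over that of PDGFB. Whether gaps of this size are unusual there was not tested.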

How the data were processed

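The submitters' processing notes name the build hg19 and the tools CASAVA, Bowtie 0.12.7, SAMtools and MACS2 2.0.10, without their roles. The authors called peaks against pooled IgG within the IDR framework, a check of reproducibility between replicates, per the labels. The value 0.01 stands in the list names. For every peak the deposited lists give positions (start, end, summit), a ratio (fold enrichment over IgG), a −log10 p-value and a score, which was not used. Samples were grouped by title.

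Peaks with their summit in an interval were taken, peaks overlapping by at least 1 bp were merged, and the most enriched peak of a factor stood for it in a region. Regions with all 4 factors were ordered by mean rank. No test was run: enrichment chose the genes, and no replicate values are in the lists. The members, intervals and lists were chosen with earlier results of these data known. Named by rule were regions with all 4 factors, the strongest peak per list, the summits nearest the 5′ end and the first beyond the edges. The PDGFB region without JUN and other single sites were named after their values were seen. Gene starts were read from the intervals (100 kb inside the upstream end), since the RefSeq gene table, on GRCh38.p14, served only for names and gene order. Merging was tested on simulated sites set far apart, with a single peak per factor and a shared summit. Chained or closely spaced peaks were not covered. Python 3.11.15, pandas 2.3.3 and numpy 2.4.6 were used.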

Additional observations from a re-analysis of the deposited data

How the results depend on the processing

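Over 20 results and 68 alternative values, 39 kept their value, or for counts stayed within 1.5 times, and 29 moved. Counting YAP peaks with the other summits within 200 bp in place of overlaps, or with lists of equal length, EPHA2 had 1 region with all 4 factors instead of 2. With the stronger 50% of each list EPHA2 had 1 and PDGFB 1 instead of 3. The count of such regions at PRKAG2 stayed at 2 under every alternative run. At CCDC85C it was 2 instead of 3 with a reciprocal overlap of 50% or with summits within 200 bp. At PDGFB it was 2 under these alternatives and with lists of equal length. These falls to 2 were within 1.5 times and so counted as kept. With the stronger 50% the peaks in the interval fell from 28 to 16 at EPHA2, 28 to 17 at PRKAG2 and 29 to 15 at PDGFB. The place of the leading region among the 4284 moved most without the JUN list at CCDC85C, PRKAG2 and PDGFB, and by −log10 p at EPHA2. Without the JUN list it was 49 for EPHA2, 12 for CCDC85C, 17 for PRKAG2 and 98 for PDGFB. Ranked by −log10 p it was 68 for EPHA2, 6 for PRKAG2 and 88 for PDGFB. By the worst of the 4 ranks it was 2 for CCDC85C, 1 for PRKAG2 and 10 for PDGFB. Without the TEAD4 list it was 6 for EPHA2, 3 for CCDC85C and 4 for PDGFB, without the TAZ list 2 for CCDC85C, 1 for PRKAG2 and 10 for PDGFB, and without the YAP list 8 for PDGFB. With ranks divided by list length, an alternative chosen after seeing the data, it was 6 for EPHA2 and 11 for PDGFB. The cause of these shifts was not tested. The number of lists whose strongest peak lay in the leading region (4, 4, 4 and 1 at PDGFB) was the same by −log10 p. The choice of the genes by enrichment favours a high number, and both measures are of the same peaks. No replicate could be left out, as 1 list covers both. No paired analysis was possible because each factor has a single list for both libraries. What depth limits is unknown here.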
